A study of Mus musculus with 12 samples.

Results

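The nuclear genes for the protein components of the mitochondrial ribosome were followed in MIN6 cells, an insulinoma line of the mouse that stands in for pancreatic β-cells, through amino acid withdrawal and re-addition. Members were all genes whose symbol is Mrps or Mrpl followed by a number and at most 1 letter, without pseudogenes, which gave 78 of 49315 genes in the count files. By name, 29 belong to the small subunit (Mrps) and 49 to the large subunit (Mrpl). Total RNA was sequenced from 12 libraries, 3 in each of 4 groups, all of wild-type MIN6 cells. The Rap cells received amino acids together with an agent labelled Rap for 3 h, the re-added cells received amino acids alone for 3 h, the starved cells were kept 16 h without amino acids, and the control cells carry the label ctrl. The labels do not spell out Rap or give its dose, and they do not say how long the cells of the first 2 groups had been without amino acids. Nor is it said that replicate libraries were grown as cultures of their own. The p-values therefore describe spread among libraries and may reflect technical spread alone. The comparisons ask which of these transcripts change on loss of amino acids, which change on their return, and what Rap alters during the return.

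The mitochondrial ribosome translates the few mRNAs that mitochondrial DNA still encodes, all of them for subunits of the respiratory chain and ATP synthase. Its rRNAs come from mitochondrial DNA, whereas its proteins are encoded in the nucleus, made in the cytosol and imported. Many of these proteins descend from bacterial ribosomal proteins, and others are found in mitochondria only. In β-cells, oxidative phosphorylation couples glucose metabolism to insulin release. Names do not follow structure everywhere: Mrps30 and Mrps18a sit in the large subunit, and Mrps36 belongs to the oxoglutarate dehydrogenase complex. They are counted by name here.

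The promoters of the members whose transcripts changed by the largest amounts are shown because the letters of motifs known from mitochondrial biogenesis can be read in them. They are Mrps18b, Mrps10 and Mrpl17, the 3 largest rises on re-addition, and Mrpl41, the largest fall in starved cells. Each sequence is the RefSeq promoter on GRCm38.p6, given 5′ to 3′ on the strand of the gene. It runs from 250 bases before to 50 bases after the start annotated in RefSeq. Starts in the count files can differ. That of Mrps10 (47368887) lies upstream of its whole window, so bases upstream of that start were not scanned. That of Mrps18b (35916389) lies downstream of its whole window. The windows are chr17:35916391-35916690 on the minus strand for Mrps18b, chr17:47368947-47369246 on the plus strand for Mrps10, chr7:105811038-105811337 on the minus strand for Mrpl17 and chr2:24975049-24975348 on the minus strand for Mrpl41. Capitals mark matches to any of 6 motifs on either strand: GCGCANGCG (NRF1), ACTTCCGG (GABPA and other ETS factors), AAGATGGC (YY1), CACGTG (the E box), CCAAT, and GGGCGG (SP1).
Mrps18b: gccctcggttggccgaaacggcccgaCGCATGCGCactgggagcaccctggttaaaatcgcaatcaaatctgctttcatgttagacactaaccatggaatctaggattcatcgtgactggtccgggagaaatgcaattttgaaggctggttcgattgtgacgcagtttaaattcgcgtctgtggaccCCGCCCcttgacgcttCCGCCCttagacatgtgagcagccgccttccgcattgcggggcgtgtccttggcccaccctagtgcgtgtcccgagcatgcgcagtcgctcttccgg
Mrps10: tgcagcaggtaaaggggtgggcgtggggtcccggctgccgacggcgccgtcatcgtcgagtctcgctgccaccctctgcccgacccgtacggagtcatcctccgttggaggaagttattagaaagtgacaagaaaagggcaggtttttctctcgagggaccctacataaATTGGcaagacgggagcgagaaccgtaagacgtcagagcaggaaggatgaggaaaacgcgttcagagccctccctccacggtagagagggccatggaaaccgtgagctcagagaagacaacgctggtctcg
Mrpl17: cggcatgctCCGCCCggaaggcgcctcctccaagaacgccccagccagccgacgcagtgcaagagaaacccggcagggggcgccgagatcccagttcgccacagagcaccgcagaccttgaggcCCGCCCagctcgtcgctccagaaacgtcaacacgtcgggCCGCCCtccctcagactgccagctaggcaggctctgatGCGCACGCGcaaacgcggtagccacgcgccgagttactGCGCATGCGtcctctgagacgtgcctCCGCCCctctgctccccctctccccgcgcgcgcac
Mrpl41: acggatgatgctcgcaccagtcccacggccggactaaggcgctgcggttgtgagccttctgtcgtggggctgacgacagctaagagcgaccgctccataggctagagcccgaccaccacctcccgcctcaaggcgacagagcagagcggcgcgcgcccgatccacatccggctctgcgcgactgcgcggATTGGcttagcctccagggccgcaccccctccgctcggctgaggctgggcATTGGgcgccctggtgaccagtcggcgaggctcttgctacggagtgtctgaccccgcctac
The NRF1 letters occurred 1 time in Mrps18b and 2 times in Mrpl17, and not in these windows of Mrps10 and Mrpl41. Mrps10 and Mrpl41 held CCAAT, read here as ATTGG on the printed strand, and the SP1 letters were present in Mrps18b and Mrpl17, read here as CCGCCC.

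RefSeq promoters were found for 69 of the 78 members, 26 of the small and 43 of the large subunit. The NRF1 letters were in 16 of them, which is 23.2%, against 12.5% of the 12089 promoters of tested genes and 6.25% of all 32851 promoters in the table. The YY1 letters were in 12 members, 17.4%, against 4.18% of promoters of tested genes and 2.75% of all promoters. The GABPA letters were in 11 members, 15.9%, against 7.62% of promoters of tested genes and 3.89% of all. For CCAAT the share was 39.1% of members, 38.1% of tested genes and 37.4% of all promoters, for SP1 it was 49.3%, 62.1% and 35.7%, and for the E box 7.25%, 9.65% and 7.15%. Each motif was scored present or absent in a window whatever other motif shared its letters, and a match is a description and not a binding site. On re-addition the 16 members with the NRF1 letters had a median log2 fold change of 0.30 and the 53 without them 0.31. In starved cells these medians were -0.29 with and -0.37 without the letters, and for the 12 members with the YY1 letters they were -0.30 with and -0.37 without.

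All 78 members passed the low-count filter, and the lowest count of any member in any library was 33 (Mrpl53), among library totals of 18555958 to 25631056 counted reads. Levels are given in CPM, counts scaled to the TMM-adjusted library size, within a gene, and in TPM, which also divides by exon length, between genes. The 16 β-cell markers were detected, and their sum was 48902 to 53283 CPM in Rap, 44628 to 50069 in re-added, 46562 to 48613 in starved and 55746 to 71976 in control libraries. Transcripts of 23 fibroblast, leukocyte and endothelial markers, none of them at 0 in all libraries, summed to 90.0 to 98.1 CPM in Rap, 98.7 to 611 in re-added, 98.4 to 1504 in starved and 1537 to 1831 CPM in control libraries. Libraries of 1 group thus differed in these markers (starved replicate 2 at 98.4 CPM, replicate 3 at 715 and replicate 1 at 1504), and their part in the results below was not tested beyond the fits named there. The acinar markers Prss1 and Amy2a1 were at 0 in all 12 libraries. In bulk RNA, fewer cells of a type and less RNA per cell cannot be told apart.

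Averaged over the 12 libraries, the large subunit members ranged from 8.71 to 287 TPM with a median of 68.9, and the small subunit members from 9.22 to 201 TPM with a median of 46.0. The highest levels of the large subunit were those of Mrpl42 (287 TPM), Mrpl34 (234 TPM), Mrpl14 (214 TPM) and Mrpl28 (182 TPM). In the small subunit they were those of Mrps16 (201 TPM), Mrps12 (172 TPM), which helps form the decoding centre, Mrps21 (150 TPM) and Mrps23 (129 TPM). The lowest were Mrpl53 (8.71 TPM) and Mrpl33 (10.9 TPM) in the large and Mrps35 (9.22 TPM) and Mrps25 (11.1 TPM) in the small subunit. Transcripts of proteins that assemble into 1 particle thus differed widely in TPM, which depends on the summed exon length. That length was 8631 bases for Mrps35, 7326 for Mrpl33 and 6576 for Mrps25, against 666 for Mrpl42 and 566 for Mrps16. Mrpl53, also low, has 790 bases, most of them shared with another gene. The part of exon length and shared exons in these differences was not tested. Over the 12 libraries, Mrpl42 lay between 235 and 342 TPM, Mrps16 between 139 and 271 TPM and Mrpl53 between 5.65 and 12.5 TPM.

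Summed over the members, transcripts of the mitochondrial ribosome were lowest in starved cells. The sum was 3384, 3347 and 3601 CPM in the 3 Rap libraries, 3759, 3832 and 3581 in the re-added, 2828, 3154 and 3070 in the starved, and 3792, 4419 and 3441 CPM in the control libraries. In this sum the starved libraries lay below all others, the Rap libraries overlapped the re-added ones, and control replicate 2 stood above every other library. Small subunit sums did not overlap between Rap (at most 1232 CPM) and re-added libraries (at least 1263 CPM). Large subunit sums did (2369 CPM in Rap replicate 3, 2317 in re-added replicate 3). Summed as TPM, all members had 5085 to 5338 in Rap and 5794 to 6106 in re-added libraries, without overlap. Small subunit members summed to 1188 ± 38.9 CPM in Rap, 1307 ± 42.2 in re-added, 993 ± 56.8 in starved and 1251 ± 170 CPM in control cells (SD, n = 3). Large subunit members summed to 2256 ± 101, 2417 ± 88.2, 2024 ± 112 and 2632 ± 326 CPM in the same groups. Of the small subunit members, 22 had their lowest group mean in starved cells, 4 in control, 2 in Rap and 1 in re-added cells, and of the large subunit members 32, 4, 11 and 2. The highest mean lay in re-added cells for 16 small and 17 large subunit members, in control cells for 12 and 27, in starved cells for 0 and 3 and in Rap cells for 1 and 2. A test over the 4 groups called 62 of the 78 members at an adjusted p below 0.05, against 71.9% of all 16844 tested genes.

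**Figure D1:**
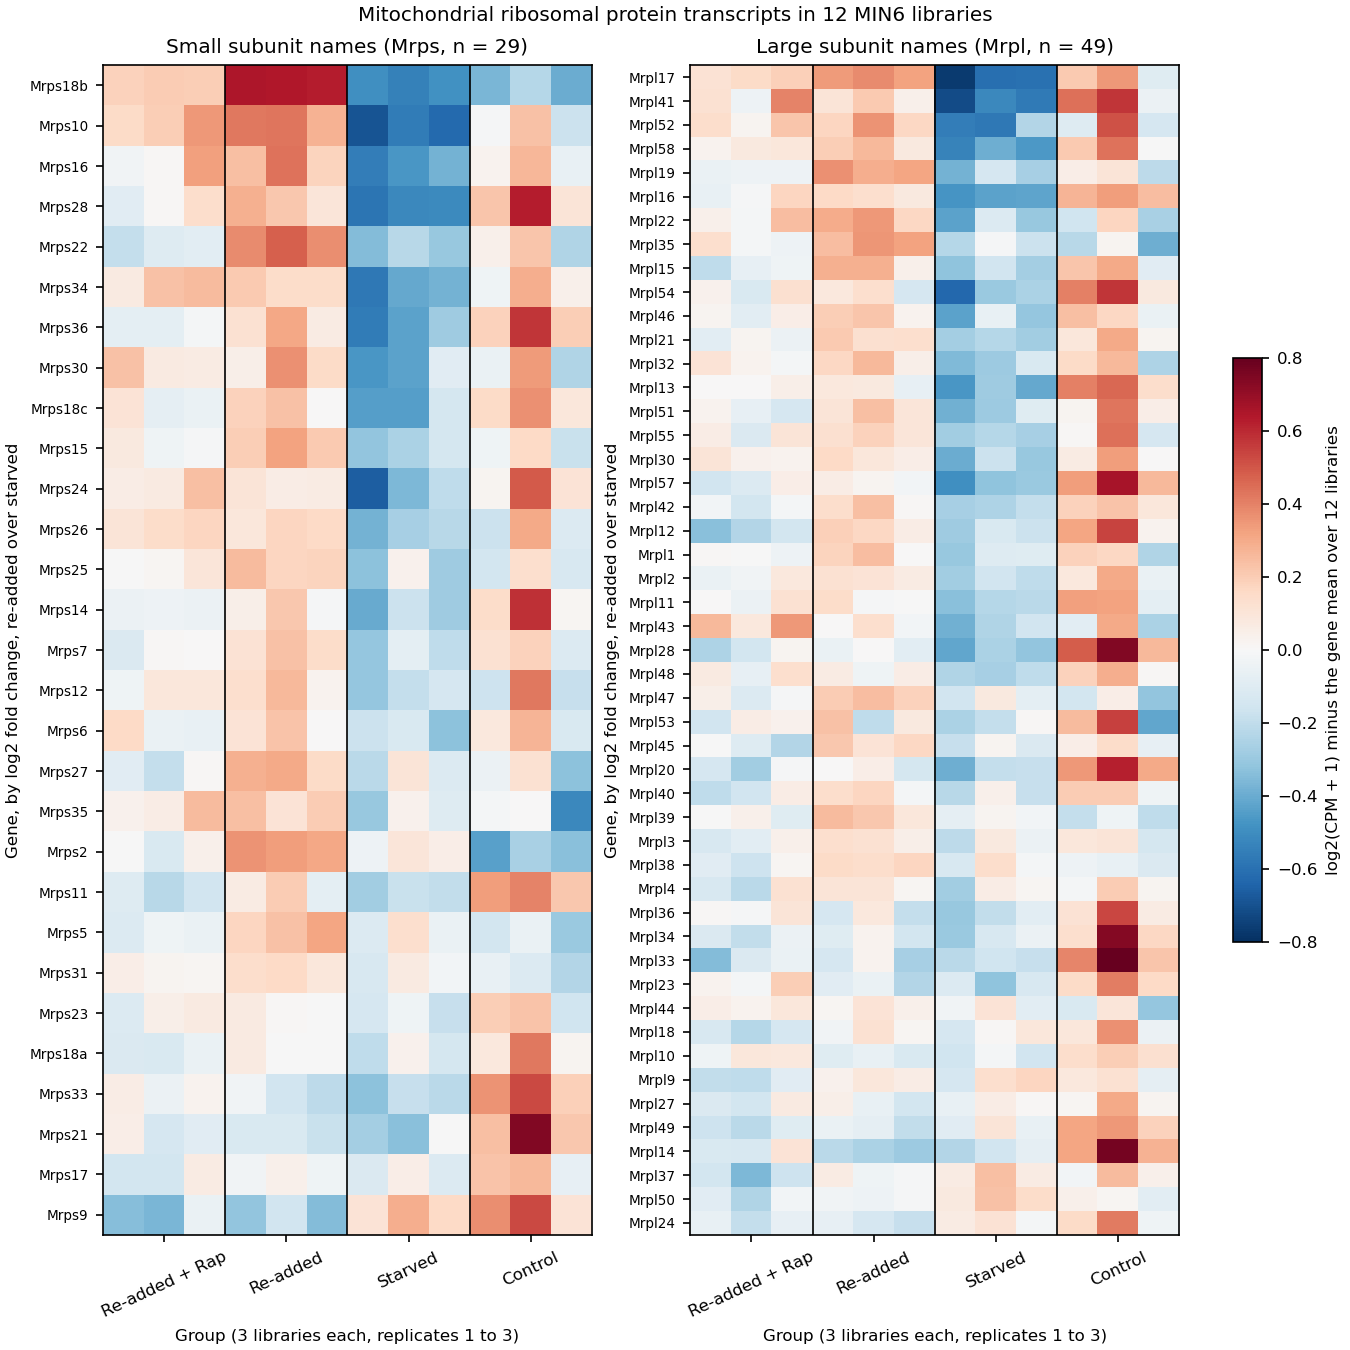
Level of each of the 78 members in the 12 libraries as log2(CPM + 1) minus the mean of the gene over all libraries, with small subunit names on the left, large subunit names on the right and genes ordered by their fold change on re-addition. The starved columns are blue in most genes, the re-added columns are red in most genes toward the top, and control replicate 2 (the middle control column) is the reddest control library.

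In starved cells, transcripts of both subunits were lower than in control cells, and few went the other way. At an adjusted p below 0.05, 44 of 78 members fell and 1 rose, against a background of 14.6% of tested genes lower and 24.3% higher. Of these 45 calls, 44 were kept with the other-cell marker sum as a covariate, where 2376 of 16844 tested genes were lower and 3004 higher. With the 6 libraries of the comparison alone 38 were kept. The median log2 fold change of the members was -0.33, against 0.01 over all tested genes, and 13 of 78 members had a positive value. Of the small subunit, 16 of 29 fell and 1 rose with a median of -0.31, and of the large subunit 28 of 49 fell and 0 rose with a median of -0.40. By edgeR 1 large subunit member was higher at an unadjusted p below 0.05, DESeq2 called 0 higher and limma on TPM 4. Members listed as of bacterial origin and those listed as found only in mitochondria were both among the fallen. They were 10 of 17 and 4 of 9 in the small subunit, and 18 of 30 and 11 of 21 in the large subunit. Here Mrps30 and Mrps18a were counted by structure. Of the relatives of bacterial S18, Mrps18b and Mrps18c were listed as of bacterial origin and Mrps18a as found only in mitochondria, a choice of the lists.

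The largest fall was that of Mrpl41, a large subunit protein specific to mitochondria. It had 25.9, 29.8 and 28.8 CPM in starved cells, against 58.9, 64.5 and 41.6 CPM in control cells. The groups did not overlap, and the log2 fold change was -0.96 (SE 0.15, adjusted p = 0.000485), a level 0.512 times that of control cells. Mrps28, a small subunit protein, had 16.4, 17.3 and 17.4 CPM in starved cells, against 29.5, 39.3 and 27.0 CPM in control cells (log2 fold change -0.91, adjusted p = 0.000231). Mrpl17, a member of bacterial origin, had 41.8, 47.0 and 47.1 CPM in starved cells, against 83.2, 91.8 and 67.2 CPM in control cells (log2 fold change -0.83, adjusted p = 7.2e-05). The starved libraries of both genes were close together, and the control libraries were spread with replicate 2 at the top.

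Mrpl16, whose bacterial counterpart lies close to the peptidyl transferase centre, had 25.4, 26.3 and 26.3 CPM in starved cells, against 43.2, 45.3 and 42.5 CPM in control cells. It is the case in which both groups were tight, with a log2 fold change of -0.75 (SE 0.08, adjusted p = 2.41e-05). Mrpl28 fell by 0.84, Mrpl57 by 0.80 and Mrpl54 by 0.77 on the log2 scale. Mrps36 fell by 0.77, with 26.1, 28.8 and 31.8 CPM in starved cells, against 44.4, 58.5 and 44.9 CPM in control cells, and it is the member that belongs to the oxoglutarate dehydrogenase complex. Of the 3 relatives of the bacterial ribosomal protein S18, Mrps18c fell by 0.56 (adjusted p = 0.00227). Mrps18a (-0.29, adjusted p = 0.0402) and Mrps18b (-0.18, adjusted p = 0.0493) passed by a small margin and lost the call in 10 and 16 of the alternatives, among them each fit without a Rap library and the fit without control replicate 2, which gave -0.15 and -0.13. Mrps30 had a log2 fold change of -0.37 and did not pass (adjusted p = 0.0835).

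The member that rose was Mrps2, a small subunit protein of bacterial origin. It had 39.9, 44.0 and 42.7 CPM in starved cells, against 30.2, 34.2 and 32.4 CPM in control cells, with no overlap (log2 fold change 0.39, SE 0.07, adjusted p = 0.00165). With libraries of like other-cell marker level in the groups compared (starved replicate 1 and the 3 control libraries), its value was 0.33 and the call was lost. The re-added and Rap libraries stayed in that fit, and the lone starved library was assumed to vary like the other groups. Among the named members, falls lost their call in that fit too. They were those of Mrpl33 (-0.72), Mrpl52 (-0.68), Mrpl34 (-0.66), Mrps18a (-0.38), Mrps22 (-0.37) and Mrps18b (-0.15). The size of the fall over all members moved with the control libraries. Their median was -0.22 without control replicate 2 and -0.45 without control replicate 3. Groups did not overlap for 43 members, against 50.1% of tested genes.

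In starved over control cells, medians were lowest for short transcripts, among the members and among genes at large. The 26 members with the shortest exons (566 to 1415 bases in sum) had a median log2 fold change of -0.45, against -0.37 for 2164 other genes of that length. The 26 of middle length had -0.25, against -0.13 for other genes. The 26 longest (3226 to 8631 bases) had -0.30, against 0.14 for 10251 other long genes. The rank correlation of fold change and exon length was 0.30 across the 78 members and 0.28 across all tested genes, as a description across genes measured in the same libraries. Library by library, the median deviation of short other genes from their mean over all libraries was 0.26 in control replicate 2, 0.09 in control replicate 1 and 0.01 in control replicate 3. It was -0.12, -0.14 and -0.09 in starved replicates 1, 2 and 3, and between -0.09 and 0.07 in the re-added and Rap libraries. On re-addition the short members had a median of 0.37 and the long ones 0.35, against 0.07 and -0.11 for other genes of those lengths.

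**Figure D2:**
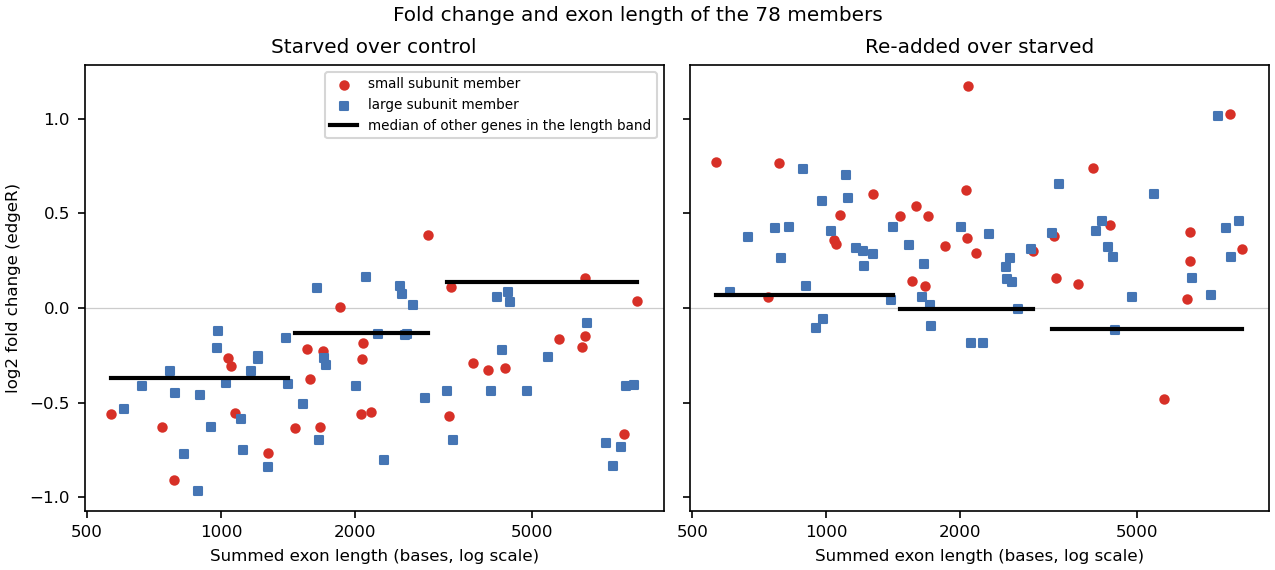
log2 fold change of each member against its summed exon length in bases (log axis), for starved over control cells on the left and re-added over starved cells on the right, with black lines at the medians of other genes over the length range of each group of 26 members. On the left the black lines climb from -0.37 to 0.14 with length while long members stay mostly below 0, and on the right most members lie above the lines.

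After amino acids were given back for 3 h, most members were higher than in starved cells. Of 78 members 45 rose and 1 fell, against a background of 18.4% of tested genes higher and 18.8% lower. Of these 46 calls, 39 were kept with the other-cell marker sum as a covariate, where 2848 of 16844 tested genes were higher and 3459 lower. The median log2 fold change was 0.32, against -0.06 over all tested genes, and 70 of 78 members had a positive value. Of the small subunit 19 of 29 rose and 1 fell (median 0.37), and of the large subunit 26 of 49 rose and 0 fell (median 0.29). By edgeR 1 large subunit member was lower at an unadjusted p below 0.05, and DESeq2 and limma on TPM called 1 lower. This comparison shares the starved libraries with the one before, so opposite directions in the 2 comparisons are not independent of each other. Groups did not overlap for 58 members, against 50.6% of tested genes.

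Mrps18b had the largest rise. It had 52.1, 52.0 and 51.6 CPM in re-added cells, against 23.2, 22.4 and 23.3 CPM in starved cells. The replicates of each group lay within 1 CPM of each other, and the level was 2.26 times that of starved cells (log2 fold change 1.18, SE 0.07, adjusted p = 2.66e-07). Control cells had 25.4, 28.1 and 24.9 CPM, so re-added cells were also above control cells, by 0.99 on the log2 scale (adjusted p = 2.44e-06). The gene lies at chr17:35910379-35916389 on the minus strand, and its promoter with the NRF1 letters is printed above.

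Mrps10, a small subunit protein of bacterial origin, had 60.5, 60.7 and 54.7 CPM in re-added cells, against 27.5, 30.1 and 28.8 CPM in starved cells (log2 fold change 1.02, SE 0.10, adjusted p = 1.53e-05). Mrpl17 had 91.1, 93.8 and 90.1 CPM in re-added cells, against 41.8, 47.0 and 47.1 CPM in starved cells (log2 fold change 1.02, SE 0.10, adjusted p = 1.2e-05). The levels were 2.03 and 2.02 times those of starved cells, and no library of either gene crossed between the groups. Mrps22, a small subunit protein specific to mitochondria, had 25.1, 27.0 and 24.9 CPM in re-added cells, against 14.8, 16.1 and 15.2 CPM in starved cells (log2 fold change 0.74, adjusted p = 0.000306). Mrps16 and Mrps28 rose by 0.77 each, Mrpl41 by 0.74 and Mrpl52 by 0.71. Mrps36 rose by 0.61, Mrps30 by 0.54 and Mrps18c by 0.49, whereas Mrps18a had a value of 0.12 and did not pass (adjusted p = 0.348). The call of Mrps30 was lost without starved replicate 1 (0.50) and without re-added replicate 2 (0.44).

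Mrps9, a small subunit protein of bacterial origin, was the member that fell. It had 19.3, 21.6 and 18.8 CPM in re-added cells, against 26.2, 29.8 and 27.1 CPM in starved cells (log2 fold change -0.48, SE 0.12, adjusted p = 0.00995). Control cells had 31.6, 35.3 and 26.2 CPM, and re-added cells were lower than those as well (-0.64, adjusted p = 0.00196). With libraries of like other-cell marker level in the groups compared, the value of Mrps9 was -0.51 without a call. Those were starved replicate 2 and re-added replicates 2 and 3. The control and Rap libraries stayed in that fit, and the lone starved library is again assumed to vary like the other groups. Rises of named members lost their call in that fit too. They were those of Mrpl35 (0.42), Mrpl57 (0.38), Mrpl54 (0.37), Mrps2 (0.29), Mrps25 (0.20) and Mrps5 (0.20).

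**Figure D3:**
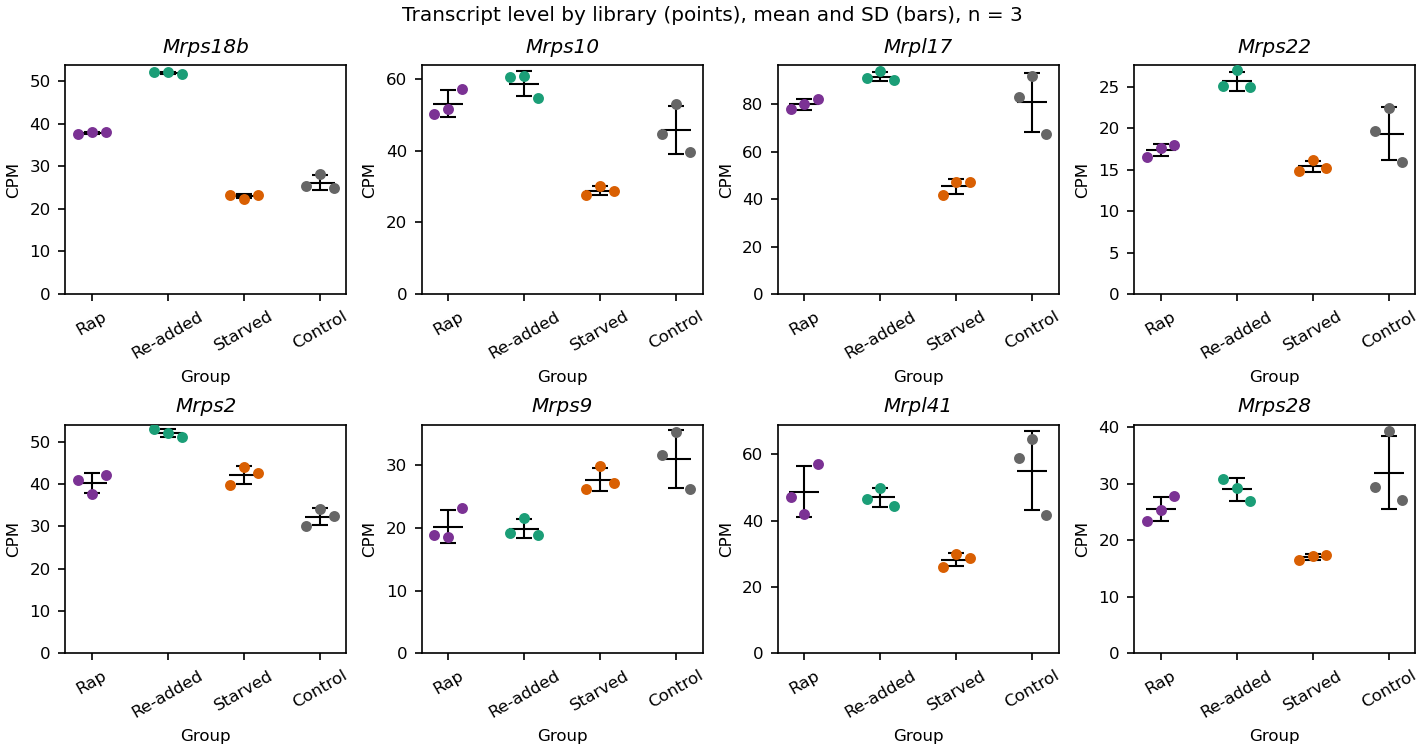
CPM of 8 members in each library (points), with mean and SD over the 3 libraries of a group (bars), in the order Rap, re-added, starved, control. Mrps18b stands at 51.6 to 52.1 CPM in re-added cells, above every library of the other groups, Mrps22 in Rap cells lies closer to its starved than to its re-added level, and Mrps9 is lower in Rap and re-added than in starved cells.

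With Rap present during re-addition, fewer members were called than in the other comparisons, and those called were lower than with amino acids alone. Of 78 members 5 fell and 0 rose, against a background of 3.43% of tested genes lower and 4.55% higher. The median log2 fold change was -0.12, against 0.00 over all tested genes, and 14 of 78 members had a positive value. By edgeR 1 member was higher and 20 were lower at an unadjusted p below 0.05, and DESeq2 and limma called 0 members higher. Of the small subunit 4 of 29 fell (median -0.14), and of the large subunit 1 of 49 (median -0.11). The other 73 members did not pass, which does not show that their levels were the same. Groups did not overlap for 32 members, against 38.9% of tested genes.

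Mrps22 had 16.5, 17.7 and 17.9 CPM in Rap cells, against 25.1, 27.0 and 24.9 CPM in re-added cells. Its level was 0.677 times that of re-added cells (log2 fold change -0.56, SE 0.11, adjusted p = 0.00928). Mrps18b had 37.6, 38.1 and 38.0 CPM in Rap cells, against 52.1, 52.0 and 51.6 CPM in re-added cells (log2 fold change -0.45, SE 0.07, adjusted p = 0.00157). Set against starved cells, Mrps18b was higher in Rap cells by 0.72 (adjusted p = 1.51e-05), and Mrps22 had a value of 0.18 that did not pass (adjusted p = 0.222). The other falls with Rap were those of Mrpl19 (-0.38, adjusted p = 0.0297), a large subunit protein of bacterial origin, Mrps2 (-0.37, adjusted p = 0.00987) and Mrps5 (-0.31, adjusted p = 0.0445), a small subunit protein of bacterial origin. Mrps2 had 41.0, 37.6 and 42.2 CPM in Rap cells, against 53.0, 52.0 and 51.2 CPM in re-added cells. For each of these 5 members, the 3 Rap libraries lay below the 3 re-added ones.

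The number of falls with Rap depended on the fit. It was 25 when the 6 Rap and re-added libraries were fitted alone, where 2130 of 15187 tested genes were lower. DESeq2 gave 14, where 1171 of 16844 tested genes were lower. Limma on log2(TPM + 1) gave 29, where 1381 of 16793 genes were lower and the median over all genes was -0.08. In fits without 1 library the number of falls was 2 to 9. It was 2 without Rap replicate 1 or 2, and 3 without Rap replicate 3 or re-added replicate 2 or 3. It was 8 without control replicate 2 or starved replicate 2, and 9 without starved replicate 1. With libraries of like other-cell marker level in the groups compared (the Rap libraries and re-added replicates 2 and 3), 5 members were lower. All control and starved libraries stayed in that fit, so it is the same as the fit without re-added replicate 1. Mrps18b kept its call in each alternative run. Mrps22 lost it without Rap replicate 1 (-0.53), Mrps2 without Rap replicate 2 (-0.32), and Mrpl19 (-0.40 to -0.38) and Mrps5 (-0.32 to -0.27) without any 1 Rap library, re-added replicate 2 or re-added replicate 3, Mrps5 also without control replicate 1. Mrpl19 shares 36.0% of its exon bases with Gcfc2 on the opposite strand, whose count in all libraries was 3153 against 7388 for Mrpl19, so its reads could be partly those of its neighbour.

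**Figure D4:**
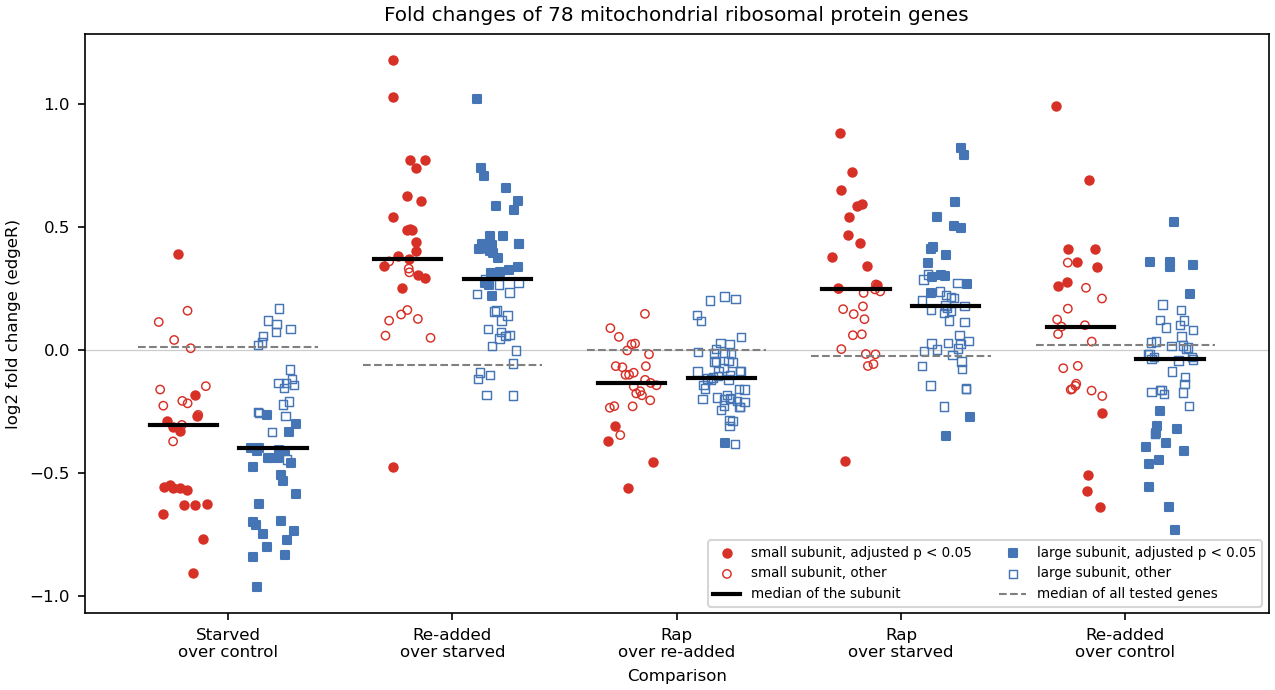
log2 fold change of each member in the 5 comparisons, small subunit as circles and large subunit as squares, filled where the adjusted p was below 0.05, with bars at the subunit medians and dashed lines at the median of all tested genes. The subunit medians are -0.31 and -0.40 in starved over control, 0.37 and 0.29 in re-added over starved, and -0.14 and -0.11 in Rap over re-added cells.

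Rap cells were also compared with starved cells directly. Of the members 27 rose and 3 fell, against a background of 20.2% higher and 23.9% lower, with a median log2 fold change of 0.21 against -0.03 over all tested genes. Mrps10 was higher in Rap cells by 0.88 (adjusted p = 6.82e-05), Mrpl17 by 0.82 (adjusted p = 8.56e-05) and Mrpl41 by 0.79 (adjusted p = 0.00196). The 3 members that fell were Mrps9 (-0.45, adjusted p = 0.0133) and the large subunit proteins Mrpl37 (-0.35, adjusted p = 0.0101) and Mrpl50 (-0.27, adjusted p = 0.0114), both specific to mitochondria. Mrpl37 had 50.1, 43.1 and 49.3 CPM in Rap cells, against 58.2, 65.7 and 58.2 CPM in starved cells. Without Rap replicate 1 or 2 the call of Mrps9 was lost (-0.41 and -0.40), as was that of Mrpl50 without Rap replicate 2 (-0.21), and both were lost with libraries of like other-cell marker level (-0.52 and -0.32). The number of rises was 15 without starved replicate 1, 16 without Rap replicate 1 and 14 without Rap replicate 3, and the number of falls was 1 without Rap replicate 2. There were 17 rises with the other-cell marker sum as a covariate and 10 with libraries of like marker level. Groups did not overlap for 44 members, against 53.1% of tested genes.

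Set against control cells, the re-added cells had members above and below. Of the members 14 rose and 16 fell, against a background of 24.8% higher and 24.5% lower, with a median log2 fold change of -0.02 against 0.02 over all tested genes. In the small subunit 8 rose and 4 fell, and in the large subunit 6 rose and 12 fell. The largest rises were those of Mrps18b (0.99), Mrps2 (0.69, adjusted p = 4.61e-05) and Mrpl35 (0.52, adjusted p = 0.00338), the last a large subunit protein of bacterial origin. Mrpl14, one of the proteins at the interface of the subunits, had 62.1, 60.6 and 58.8 CPM in re-added cells, against 90.1, 124 and 87.7 CPM in control cells (-0.73, adjusted p = 0.000706). Mrps9 and Mrpl33 both fell by 0.64. The median of the members thus lay near 0 while single members lay far on either side of it. The other-cell markers were 98.7 to 611 CPM in these re-added libraries and 1537 to 1831 CPM in the control libraries. With their sum as a covariate 2 members rose and 7 fell, with Mrpl35 at 0.37 and no longer called. Under that covariate 1434 of 16844 tested genes were higher and 1441 lower. The number of rises was 9 without control replicate 3 and 7 without re-added replicate 2, and the median was 0.07 without control replicate 2. Groups did not overlap for 31 members, against 59.5% of tested genes.

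Other genes of the mitochondrial translation machinery were read in the same way. For the lists from here on, the background in starved cells was 24.3% of tested genes higher and 14.6% lower. On re-addition it was 18.4% higher and 18.8% lower, and with Rap 4.55% higher and 3.43% lower. Among 5 mitochondrial ribosome proteins with other symbols, 2 fell in starved cells and 4 rose on re-addition, with 0 called with Rap. Chchd1, a small subunit protein, had 39.4, 36.2 and 34.8 CPM in re-added, 23.9, 25.7 and 25.8 in starved and 45.9, 60.6 and 40.9 CPM in control cells. Its log2 fold change was -0.97 in starved over control cells (adjusted p = 0.000185) and 0.55 in re-added over starved cells (adjusted p = 0.00642). Ptcd3 rose by 0.40 on re-addition, and Aurkaip1 (-0.20, adjusted p = 0.0992) did not pass in starved cells. Dap3, a GTP-binding small subunit protein, had a value of -0.19 with Rap that did not pass (adjusted p = 0.186). Gadd45gip1, a large subunit protein, fell by 0.46 and rose by 0.33 in the same comparisons, and lost the second call without re-added replicate 2 (0.30). With libraries of like other-cell marker level the calls on re-addition were lost for Chchd1 (0.53), Gadd45gip1 (0.34) and Ptcd3 (0.24).

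Of 15 mitochondrial translation factors, 3 rose and 2 fell in starved cells, 7 rose and 1 fell on re-addition, and 0 rose and 2 fell with Rap. Gfm1, an elongation factor, had 37.3, 37.3 and 32.7 CPM in Rap, 51.5, 50.9 and 49 in re-added and 36.5, 37.6 and 38.9 CPM in starved cells, with log2 fold changes of 0.42 on re-addition (adjusted p = 0.00117) and -0.50 with Rap (adjusted p = 0.00226). Tufm, the elongation factor that brings aminoacyl-tRNA, fell by 0.41 with Rap (adjusted p = 0.00853). Gfm2, which takes part in ribosome recycling, rose by 0.62 on re-addition. Lrpprc, which stabilises mitochondrial mRNAs, went the other way from most members, with a rise of 0.67 in starved cells and a fall of 0.58 on re-addition, while its partner Slirp fell by 0.72 in starved cells. Oxa1l, which inserts new proteins into the inner membrane, rose by 0.50 in starved cells.

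Of 25 factors of ribosome assembly and rRNA modification, 4 rose and 1 fell in starved cells, 8 rose and 2 fell on re-addition, and 0 rose and 2 fell with Rap. On re-addition Rcc1l, an assembly factor, rose by 0.95 (adjusted p = 0.000235) and Trmt61b, a methyltransferase, by 0.84. Dhx30, an RNA helicase, rose by 0.27 in starved cells and by 0.41 on re-addition. Rpusd4, a pseudouridine synthase, rose by 0.41 and Noa1, a GTPase of small subunit assembly, by 0.39 in starved cells. Without starved replicate 2 or 3 these calls were lost (0.38 and 0.33 for Rpusd4, 0.29 and 0.31 for Noa1), as were that of Rpusd4 without control replicate 3 (0.34) and that of Noa1 without control replicate 1 (0.35). All 3 of these calls in starved cells were lost with the other-cell marker sum as a covariate (0.21 for Dhx30, 0.38 for Rpusd4 and 0.23 for Noa1), with libraries of like marker level (0.18, 0.29 and 0.12 in that order) and with the 6 libraries of the comparison alone (0.23, 0.38 and 0.35). Rpusd4 (0.27) and Noa1 (0.24) also lost theirs with upper-quartile factors. With Rap the falls were those of Mrm3 (-0.49), an rRNA methyltransferase, and Fastkd2 (-0.55), which binds mitochondrial rRNA. Both of these calls were lost in fits without any 1 Rap library, re-added replicate 2 or re-added replicate 3, with values of -0.54 to -0.41 for Mrm3 and -0.59 to -0.50 for Fastkd2.

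Regulators of mitochondrial biogenesis had mostly the opposite sign to the ribosomal proteins. Of 13 such genes, 8 rose and 1 fell in starved cells (median log2 fold change 0.57), and 1 rose and 7 fell on re-addition (median -0.52). Ppargc1a, the coactivator PGC-1α, had 11.3, 13.1 and 11.5 CPM in re-added, 30.2, 39.3 and 32.3 in starved and 8.79, 6.11 and 8.48 CPM in control cells, a rise of 2.12 in starved cells (adjusted p = 1.43e-06) and a fall of 1.5 on re-addition (adjusted p = 9.15e-06). Ppargc1b rose by 1.61 and Gabpb2, a subunit of the GABP factor, by 0.88 in starved cells. Tfb2m, which melts mitochondrial promoters for transcription, fell by 0.94 on re-addition. Pprc1, the related coactivator PRC, had 42.1, 41.2 and 38.9 CPM in Rap, 57.9, 62.6 and 71.2 in re-added, 34.7, 40.3 and 37.3 in starved and 27.3, 25.6 and 31.4 CPM in control cells. Its libraries were highest in re-added cells, with a rise of 0.77 on re-addition (adjusted p = 9.36e-05) and a fall of 0.65 with Rap (adjusted p = 0.00202). Gabpa, the DNA-binding subunit of GABP, rose by 0.39 with Rap (adjusted p = 0.0436), a call lost without any 1 Rap or re-added library or starved replicate 1 or 3 (0.35 to 0.46). The fit with libraries of like marker level (0.35) is the one without re-added replicate 1. The call was also lost with the other-cell marker sum as a covariate (0.34) and with limma on log2(TPM + 1) (0.27) and log2(TPM + 0.1) (0.28).

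Among the 13 mRNAs that this ribosome translates, 7 rose in starved cells over control cells and 0 were called on re-addition or with Rap, by edgeR with 0 at an unadjusted p below 0.05. mt-Nd2 had 1313, 1371 and 1540 CPM in starved cells, against 525, 699 and 663 CPM in control cells (log2 fold change 1.16, adjusted p = 0.000275). mt-Nd5 rose by 1.31 and mt-Cytb by 0.99 in the same comparison. These counts are uncertain, since mt-Co2 (1.07 to 1.2 CPM in starved cells) and mt-Co3 (1.80 to 2.62 CPM) were counted far below mt-Co1 (5317 to 6588 CPM), and the handling of nuclear copies of mitochondrial DNA is not given in the sources used here. The mitochondrial rRNAs were not analysed here.

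Next to the members stood the ribosome of the cytosol and the respiratory chain. Of 84 tested cytosolic ribosomal protein genes 67 fell in starved cells (median -0.50), 5 rose and 1 fell on re-addition (median 0.08), and 11 rose and 0 fell with Rap (median 0.24). Of 86 tested nuclear respiratory chain genes, 68 were lower in starved cells (median -0.58), 26 rose and 1 fell on re-addition (median 0.21), and 1 rose and 1 fell with Rap (median 0.07). The mitochondrial ribosome members had medians of -0.33, 0.32 and -0.12 in these comparisons. In Rap over starved cells 45 of the cytosolic genes rose and 0 fell (median 0.31). Of the respiratory chain genes 40 rose and 2 fell there (median 0.30), and of the 78 members 27 rose and 3 fell (median 0.21). The difference between the sets was not tested.

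**Figure D5:**
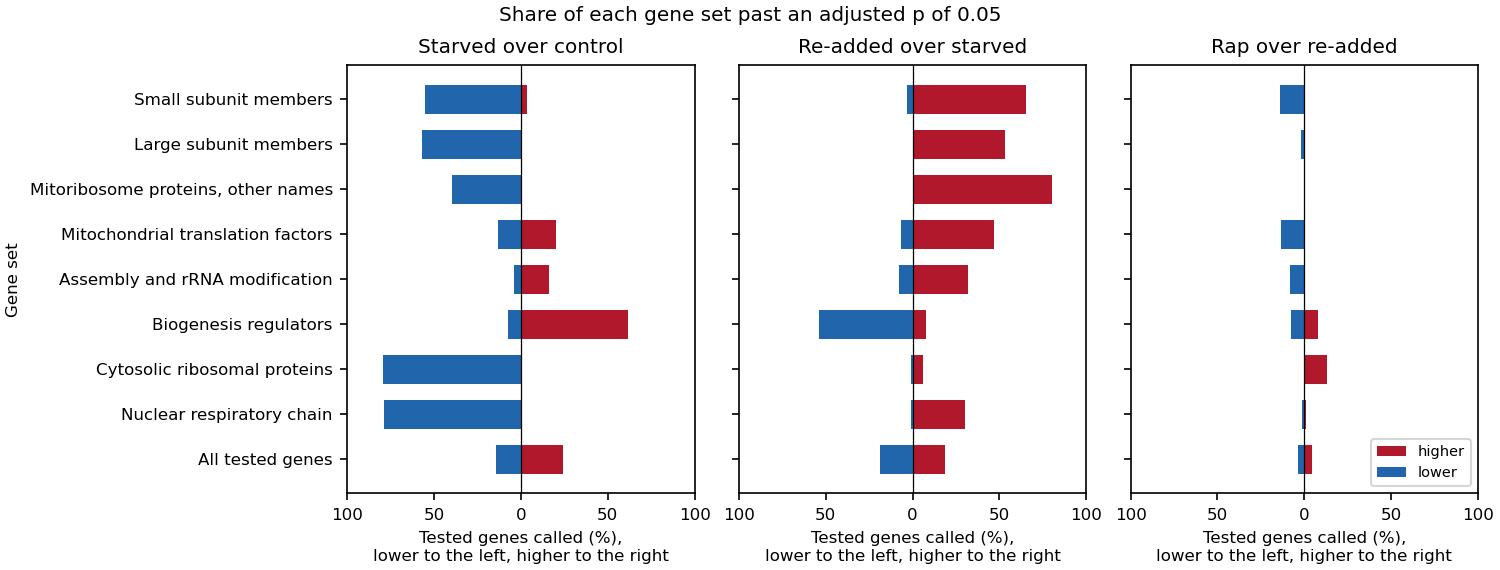
Share of tested genes of each set that rose (red, to the right) or fell (blue, to the left) at an adjusted p below 0.05 in the 3 main comparisons, in percent. On re-addition 65.5% of small and 53.1% of large subunit members rose. The share was 30.2% for nuclear respiratory chain genes, 5.95% for cytosolic ribosomal protein genes and 18.4% for all tested genes.

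Members lie on 17 chromosomes, with 11 of them on chromosome 11, so they are not 1 cluster. Many share a start region with another gene: 19 members had a tested partner on the opposite strand in head-to-head position with starts at most 1000 bases apart. In starved cells these 19 members had a median log2 fold change of -0.30 and their partners 0.06, with 7 partners called higher and 2 lower. On re-addition the medians were 0.36 for the members and -0.13 for the partners, with 1 partner higher and 5 lower, and with Rap they were -0.09 and 0.03.

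Mrps18b starts 45 bases from Ppp1r10, which encodes a regulatory subunit of protein phosphatase PP1. On re-addition Mrps18b rose by 1.18 while Ppp1r10 had a value of -0.05 (adjusted p = 0.664). Mrpl43 starts 116 bases from Twnk, the helicase of mitochondrial DNA replication. Twnk had log2 fold changes of 1.2 in starved cells (adjusted p = 2.41e-06), -1.44 on re-addition (adjusted p = 4.70e-07) and 0.78 with Rap (adjusted p = 0.000337), against -0.27, 0.30 and 0.20 for Mrpl43. Mrps18c starts 29 bases from Helq, a DNA helicase, which rose by 0.59 in starved cells and fell by 0.87 on re-addition, while Mrps18c fell by 0.56 and rose by 0.49. Mrpl32 and its partner Psma2, a proteasome subunit, had the same signs, with -0.34 and -0.70 in starved cells and 0.43 and 0.37 on re-addition. These pairs were chosen after their values were seen.

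Overlapping genes limit some values. The exons of 31 members overlap those of another gene, on the opposite strand in 26 cases, and the strand setting of the counting is not given in the sources used here. For 5 members the overlap covered at least 20% of the exon length with a neighbour of at least 20% of the member's count: Mrpl19, Mrpl24, Mrpl53, Mrps25 and Mrps34. Mrpl53 shares 88.0% of its exon bases with Gm42688 on the same strand, and Mrps25 shares 69.8% with Nr2c2 and Mrps34 63.4% with Mapk8ip3 on the opposite strand. Their values are uncertain, and those of Mrpl46 and Mrps11, whose starts overlap each other, share reads at most over 173 exon bases. Smaller overlaps can also lie with genes of higher counts. Mrpl47 (5252 counts) shares 10.2% of its exon bases with Actl6a (20514) and 13.9% with Ndufb5 (18457). Mrpl18 (10685) shares 10.1% with Tcp1 (82087), all on the opposite strand. The 5 pseudogene rows of the family each held at most 1.05% of the count of their parent gene.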

How the data were processed

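The deposited files hold raw read counts per gene, 1 table per library, with exon coordinates per the file headers, and a TPM table that the authors deposited with gene names. Each TPM value is the count over exon length scaled to 1 common sum, to within 5.0e-05. Per the submitters' processing notes, the tools were limma 3.46.0 and Subread 2.0.1 on GRCm38.p6. No source used here names the aligner or the strand setting. Genes were kept by filterByExpr (a minimum count of 10 and a total of 15), and 16844 of 49315 genes with 99.9% of counts stayed. In R 4.3.3, edgeR 4.0.16 fitted the 12 libraries once (TMM, quasi-likelihood, 8 residual degrees of freedom), with each comparison as a contrast and Benjamini-Hochberg adjustment over all tested genes at 0.05. CPM of the marker lists uses raw totals. Total counts per library ran from 18555958 to 25631056, and spread between replicates rather than counting sets the precision. The count fits were tested on simulated data. Alternatives were other scaling, DESeq2 1.42.0, limma 3.58.1 on log2(TPM + 1) and log2(TPM + 0.1), no filter, fewer libraries, a marker covariate and a replicate block. Fits with libraries of like marker level dropped libraries of the groups compared only and kept all those of the other groups. Promoters are RefSeq's (GRCm38.p6).

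Named members are the 8 largest called rises and falls per main comparison, 3 per secondary one, the highest and lowest by TPM, calls against the majority, and Mrps18a, Mrps18b, Mrps18c, Mrps30 and Mrps36. Of each other list the 3 genes with the smallest adjusted p were taken per main comparison. The members and lists were chosen with earlier results of these data known.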

Additional observations from a re-analysis of the deposited data

How the results depend on the processing

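No member called in a comparison was called in the opposite direction under any alternative. The median of the members changed sign in re-added over control cells, where it was -0.02: it was positive with limma, without control replicate 2 (0.07) and without re-added replicate 3 (0.014). With limma the median of all genes was 0.12 and 0.14 there (pseudocounts 1 and 0.1), against 0.02 in the main fit. In starved over control cells the median of the members was -0.48 with upper-quartile factors, which moved the median of all genes to -0.13. With limma on TPM the median of the members was -0.198 and -0.2 (pseudocounts 1 and 0.1), and that of all genes 0.13 and 0.15. Members called higher were 2 with raw library totals and 7 with limma for either pseudocount. Of all tested genes 4101 were higher in the main fit, 4389 with raw totals, and 5363 and 5332 with limma. In re-added over starved cells 2 members were lower with raw totals, DESeq2, the 6 libraries alone and limma, and 0 with like marker level, where 18 were higher. In Rap over re-added cells 13 members were lower with raw totals, 14 by DESeq2 and 25 with the 6 libraries alone. By limma 29 and 28 members were lower (pseudocounts 1 and 0.1), with medians of -0.219 and -0.221, against -0.08 and -0.09 for all genes. Calls rose among all tested genes too: 578 were lower in the main fit, 1037 with raw totals and 1171 by DESeq2. With the 6 libraries alone 2130 of all genes were lower, and by limma 1381 and 1374. In Rap over starved cells 5 members were lower with raw totals, 6 with the 6 libraries alone and 10 with limma for either pseudocount (medians 0.077 and 0.078). By limma the median of all genes was -0.12 and -0.13 there. Of all tested genes 4025 were lower in the main fit, 4601 with raw totals, 4099 with the 6 libraries alone, and 3927 and 3988 by limma. With the marker covariate 17 members were higher, and 2295 of all genes against 3399 in the main fit. In re-added over control cells 9 members were higher with upper-quartile factors and with the 6 libraries alone, and 24 and 23 by limma (medians 0.081 and 0.082). With the marker covariate 2 members were higher and 7 lower. Of all tested genes 4172 were higher in the main fit, 3579 with upper-quartile factors and 3162 with the 6 libraries alone. By limma 5183 and 5137 of all genes were higher, and with the covariate 1434, where 1441 were lower. The cause of these shifts was not tested.

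Leaving out 1 library at a time, the median ranged from -0.447 to -0.220 in starved over control and from -0.093 to 0.070 in re-added over control cells. The number of members lower ranged from 1 to 3 on re-addition, from 2 to 9 with Rap over re-added cells and from 1 to 4 with Rap over starved cells. The number higher ranged from 14 to 33 in Rap over starved and from 7 to 21 in re-added over control cells. Correlations of libraries with the same replicate number ran from -0.332 to 0.812. The highest joined the starved and re-added libraries of replicate 1 (0.812) and of replicate 2 (0.672). Other-cell markers were 1504 and 611 CPM in those of replicate 1, the highest of their groups, and 98.4 and 99.7 CPM in those of replicate 2. Marker level and pairing cannot be told apart in these values, and the numbers are not taken to pair libraries. With a replicate block 44 members were lower in starved cells, 44 were higher on re-addition and 4 were lower with Rap. Under the block the calls with Rap of Mrps5 (-0.31), Fastkd2 (-0.55) and Gabpa (0.39) were lost, as was that of Mrps18b in starved cells (-0.18).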
